A study of Mus musculus with 3 samples.

Results

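The T cell receptor complex and its first signalling proteins were read as 10 genes, Cd3e, Cd3d, Cd3g, Cd247, Cd4, Cd8a, Cd8b1, Lck, Zap70 and Lat. They were chosen by symbol, as the genes to which the RefSeq accession of an array probe maps. All 10 had a probe, out of 20886 genes with a named probe on the array, and together they had 13 probes. All 10 genes were well above background on the 3 arrays, as were 12 of the 13 probes. The samples were stimulated CD4+ T cells from female C57BL/6 mice aged 8 weeks, taken after 2 days. There were 3 groups with 1 array each, wild type (WT), Dll1-/- (Dll1 KO in the plots) and Rbpj-/- (Rbpj KO). Dll1 is a ligand of Notch receptors, and Rbpj binds DNA and carries the Notch signal to its target genes. How the cells were stimulated, which cells carried the deletions, what drove them and how many mice gave each sample are not stated in the labels. A single array stands for each group, so differences cannot be checked against replicates and carry no p-values, and both comparisons with WT share the WT array.

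The antigen-binding chains of the T cell receptor have almost no part inside the cell, and signal through the CD3 chains and the zeta chain, whose tails carry paired tyrosines called ITAMs. The coreceptors CD4 and CD8 bind MHC class II and class I molecules and bring the kinase Lck to the receptor. Lck phosphorylates the ITAMs, Zap70 docks there and phosphorylates the adaptor Lat, and Lat gathers the enzymes that act further on. A mature helper T cell carries CD4 and has silenced the CD8 genes, whereas a mature killer T cell carries CD8.

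Levels are log2 of the background-subtracted signal minus the array's 75th percentile, so a level of 0 lies at that percentile and a difference of 1 is 2-fold. All differences are relative to that scaling; scaling to spike-in RNA instead shifts every value in Rbpj-/- cells against WT by -0.74 and every value in Dll1-/- cells by -0.21, so medians of lists are given beside that of all genes. A probe counts as measured on an array where it was well above background. Cd4 and the CD3 chains, the genes that define the labelled cells, were well above background on all 3 arrays. Of 55678 probes, between 46.6% and 50.1% were well above background on each array. The median SD between spots of one probe was between 0.06 and 0.07 log2, which is the error of spots and not of mice. The targeted genes were read as a check of the labels. The 2 probes for Rbpj stood at 0.25 and 1.82 in WT, at 0.58 and 2.06 in Dll1-/- cells and at -0.09 and 1.16 in Rbpj-/- cells, so both were lowest in Rbpj-/- cells. On all 3 arrays the probe for Dll1 was not well above background. The labels do not tell whether these probes lie in deleted sequence, so neither label is checked by them.

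The promoters are shown for the gene whose probe differed most in Rbpj-/- cells, Cd8a, and for the 3 members whose window holds the letters GTGGGAA, which Rbpj binds. Of the 10 members, 8 have a window of 300 bases in the RefSeq promoter table of build GRCm38.p6, and Cd4 and Cd8b1 are not among them. Each window runs 5′ to 3′ on the gene's strand, from 250 bases before the start to 50 after it. Capitals mark the shorter core TGGGAA on either strand, which reads TTCCCA where it lies on the other strand. The core contains GGAA, the letters that ETS factors bind. The Cd8a window is at chr6:71373177-71373476 on the plus strand and that of Cd3g at chr9:44980382-44980681 on the minus strand. The Zap70 window is at chr1:36761548-36761847 on the plus strand and that of Lat at chr7:126369519-126369818 on the minus strand.
Cd8a: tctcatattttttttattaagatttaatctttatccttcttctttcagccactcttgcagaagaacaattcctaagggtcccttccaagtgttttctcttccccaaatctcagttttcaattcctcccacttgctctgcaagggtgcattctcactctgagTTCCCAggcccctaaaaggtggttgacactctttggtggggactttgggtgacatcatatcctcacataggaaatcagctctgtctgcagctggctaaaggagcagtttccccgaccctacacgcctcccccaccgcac
Cd3g: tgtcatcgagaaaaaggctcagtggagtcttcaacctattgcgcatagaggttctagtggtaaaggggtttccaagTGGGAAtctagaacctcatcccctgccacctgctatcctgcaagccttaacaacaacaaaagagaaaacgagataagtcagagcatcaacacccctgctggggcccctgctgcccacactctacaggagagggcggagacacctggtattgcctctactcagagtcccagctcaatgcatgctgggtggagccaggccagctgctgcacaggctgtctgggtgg
Zap70: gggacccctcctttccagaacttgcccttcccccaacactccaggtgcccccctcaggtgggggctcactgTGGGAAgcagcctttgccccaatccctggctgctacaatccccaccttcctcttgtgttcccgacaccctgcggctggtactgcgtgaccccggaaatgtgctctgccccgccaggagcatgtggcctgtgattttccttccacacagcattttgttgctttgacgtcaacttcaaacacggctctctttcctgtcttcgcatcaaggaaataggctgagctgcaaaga
Lat: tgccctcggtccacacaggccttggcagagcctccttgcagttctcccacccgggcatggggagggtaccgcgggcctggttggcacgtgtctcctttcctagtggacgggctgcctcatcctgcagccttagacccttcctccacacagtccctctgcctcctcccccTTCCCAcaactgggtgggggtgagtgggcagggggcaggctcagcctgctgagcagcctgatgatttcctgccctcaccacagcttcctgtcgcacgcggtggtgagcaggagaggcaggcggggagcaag
In Cd8a the core lay on the other strand and was not preceded by the extra base of the longer motif. In Cd3g the longer motif began 175 bases before the start and in Zap70 it began 180 bases before it. In Lat it lay on the other strand, 81 bases before the start. On both strands, GTGGGAA was found in 3 of 11 windows of the members (Zap70 and Lck have several) and in 6.38% of 32851 windows of all genes. The core TGGGAA was found in 6 of 11 and in 25.6% of all. The letters TGTGGT, bound by Runx factors that regulate both coreceptor genes, were in 3 of the 11 (Lck, Zap70 and Lat) and in 16.8% of all. A match describes the letters only, and the arrays hold no measure of binding.

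The genes of the receptor core and its kinases were close to WT in both knockouts, while the coreceptor genes lay further from WT in Rbpj-/- cells. There Cd8a was lower, by 2.44-fold at the probe that measures it on both arrays, Cd8b1 was 1.49-fold lower, and Cd4 was higher by both of its probes, except that spike-in scaling turns both and no scaling turns one. In bulk RNA, fewer cells of a type and less RNA per cell cannot be told apart. All 10 genes were within 1.5-fold of WT in Dll1-/- cells, as were 95.8% of all genes. In Rbpj-/- cells 9 of 10 were, beside 88.2% of all genes. As means of their probes, Cd4 at 0.38 and Cd8b1 at -0.57 lay inside the 5th to 95th percentile of all genes there (-0.68 to 0.58). Cd8a at -0.76 lay outside it. Taking each gene as the mean of its probes, 0 of 10 members were at least 2-fold apart in Dll1-/- cells, where 1.12% of 11811 genes measured on both arrays were (0 of 10 against 0.762% counting only probes that each of the arrays measured). In Rbpj-/- cells it was 0 of 10 against 3.53% of 11578 genes, or 1 of 10 (Cd8a) against 3.15% with only such probes. The median over the 10 members was -0.07 log2 in Dll1-/- cells, beside -0.03 over all genes, and -0.04 in Rbpj-/- cells, beside -0.07.

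**Figure D1:**
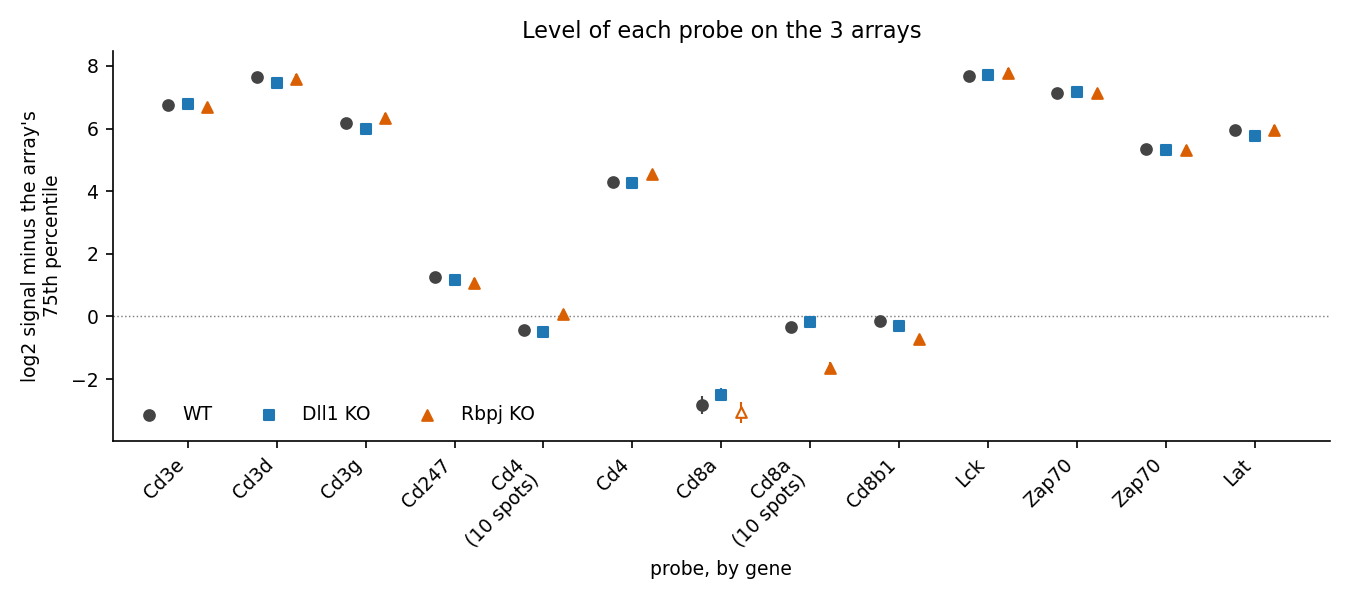
Level of each of the 13 probes on the WT, Dll1 KO and Rbpj KO arrays (y axis, log2 signal minus the array's 75th percentile), with bars for the scanner software's error and open symbols where a probe was not well above background. Levels of different probes cannot be set against each other. For the CD3 chains, Cd247, Lck, Zap70 and Lat the arrays differ by at most 0.36 log2, and the Rbpj KO stands apart at the 10-spot probes of Cd4 and Cd8a.

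Among the signalling chains, Cd3e, the CD3 chain that pairs with both Cd3d and Cd3g, had signals of 19168 in WT, 17290 in Dll1-/- cells and 14496 in Rbpj-/- cells. After scaling these were levels of 6.75, 6.80 and 6.68, and the differences from WT were 0.04 and -0.07 log2. The scanner software's own error of such a difference was 0.20 log2, so neither exceeds it. Cd3d, a partner of Cd3e, stood at 7.66 in WT, 7.46 in Dll1-/- cells and 7.60 in Rbpj-/- cells. Its largest difference, -0.20 in Dll1-/- cells, is of the size of that error. Cd3g, the other partner of Cd3e, stood at 6.18, 6.00 and 6.35 in the same order. Cd3g was thus lowest in Dll1-/- cells and highest in Rbpj-/- cells, with differences from WT of -0.18 and 0.18 that stay within the error of 0.20; both kept their side of the median gene in the alternatives that measured it. Between the knockouts it was 0.36 log2 higher in Rbpj-/- cells, inside the 5th to 95th percentile of all genes (-0.69 to 0.60), and at -0.17 under spike-in scaling. Its promoter window, printed above, is one of the 3 with GTGGGAA. Cd247, the zeta chain that carries most of the receptor's ITAMs, had levels of 1.28, 1.18 and 1.07. It was lowest in Rbpj-/- cells, at -0.21 from WT beside an error of 0.21. In the RefSeq table Cd3g, Cd3d and Cd3e are direct neighbours with 0 genes between them, and their differences in Rbpj-/- cells were 0.18, -0.06 and -0.07.

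Among the members the kinases had the narrowest ranges over the 3 arrays. Lck, the coreceptor-bound kinase that starts the signal, had levels of 7.69 in WT, 7.72 in Dll1-/- cells and 7.78 in Rbpj-/- cells. Its differences from WT were 0.04 and 0.09 log2, both below the error of 0.20. Zap70, the kinase that docks on phosphorylated ITAMs, was measured by 2 probes in different parts of the array. One read 7.14, 7.16 and 7.12 and the other 5.36, 5.32 and 5.31 in the same order of groups. The differences from WT were 0.01 and -0.02 at the first and -0.03 and -0.04 at the other, and as a mean of both Zap70 had the narrowest spread of the members. Lat, the membrane adaptor that Zap70 phosphorylates, stood at 5.96 in WT and in Rbpj-/- cells and at 5.77 in Dll1-/- cells. Its difference of -0.19 in Dll1-/- cells lies within the error. Zap70 and Lat are the other members whose windows hold GTGGGAA, and in Rbpj-/- cells they were at -0.03 and 0.01.

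**Figure D2:**
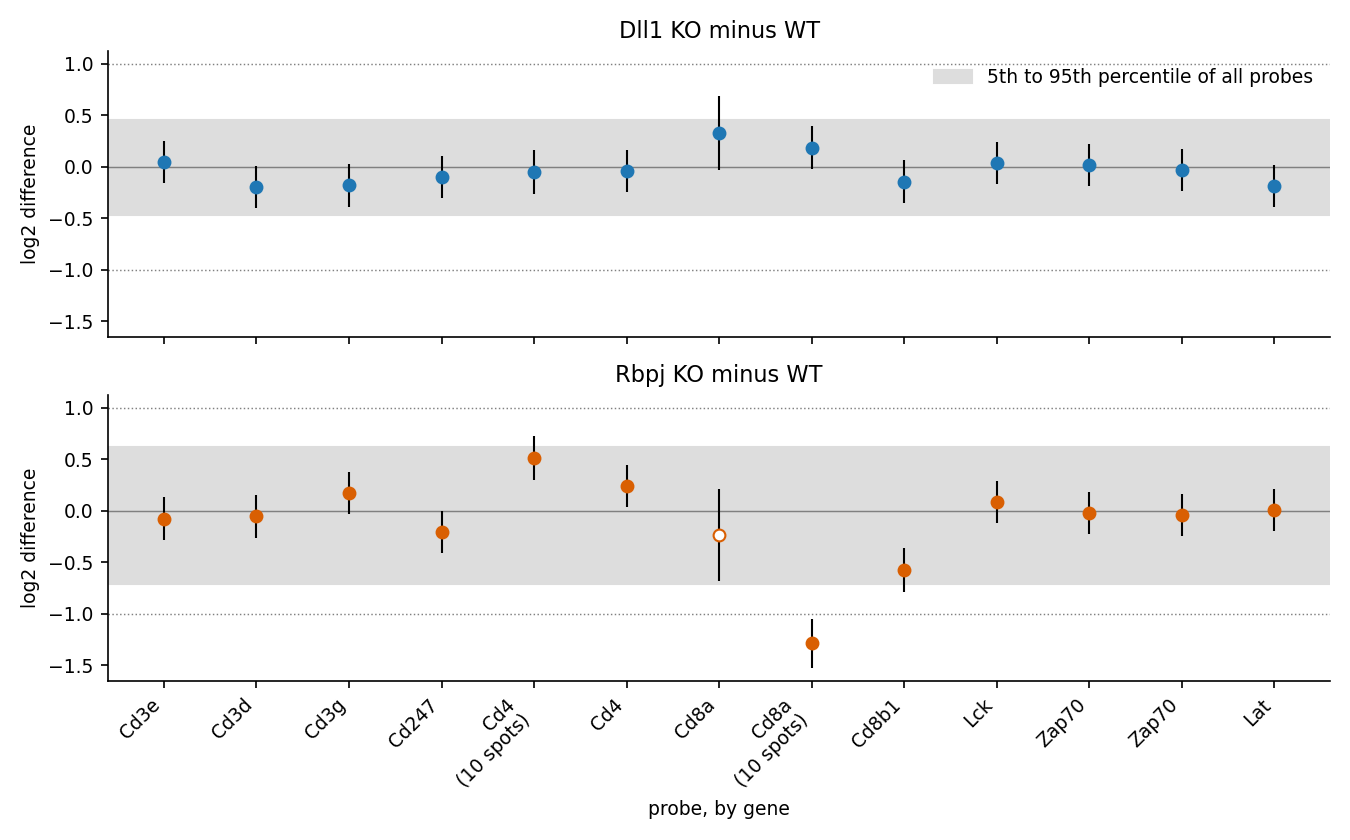
Difference of each probe from WT (y axis, log2; bars, the scanner software's error of the difference; grey, the 5th to 95th percentile of all probes that each of these arrays measured, dotted lines 2-fold). In the Dll1 KO all 13 probes lie inside the grey band, and in the Rbpj KO the 10-spot Cd8a probe at -1.29 lies outside it; the open symbol was not well above background in the Rbpj KO.

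Cd4, the coreceptor that defines helper T cells, was read by a probe printed as 10 spots and by another printed as 1 spot. At the 10-spot probe the WT spots ran from -0.56 to -0.31 with a median of -0.44, and those of Dll1-/- cells from -0.62 to -0.41 with a median of -0.47. In Rbpj-/- cells they ran from -0.03 to 0.16 with a median of 0.09. The mean difference from WT was 0.51 log2 in Rbpj-/- cells (1.43-fold higher), with 10 of 10 spots higher, and -0.05 in Dll1-/- cells. The spot SD was 0.07 log2 on each of the 3 arrays (n = 10 spots, 9 in Dll1-/- cells), which is spot error within 1 array. The other probe stood at 4.30 in WT, 4.26 in Dll1-/- cells and 4.54 in Rbpj-/- cells, so it differed from WT by -0.04 and by 0.24. Both probes put Cd4 highest in Rbpj-/- cells under this scaling, and the sizes there differ, 0.51 and 0.24. Under spike-in scaling they were at -0.23 and -0.51. As a mean of both, Cd4 was 0.38 above WT in Rbpj-/- cells, or -0.37 under scaling to spike-in RNA and 0.05 without scaling. All genes shift with these scalings, so that the median gene was then at -0.82 and -0.40, and Cd4 was above the median gene in each of the 12 alternatives run.

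Cd8a, the CD8 chain that binds Lck, was read by a 10-spot probe and a 1-spot probe. At the 10-spot probe the spots ran from -0.52 to -0.25 in WT, with a median of -0.33, and from -0.31 to 0.10 in Dll1-/- cells, with a median of -0.17. In Rbpj-/- cells they ran from -1.83 to -1.32 with a median of -1.68. These are spots of 1 probe on 1 array per group, so their spread is spot error and they are not replicates. Mean signals were 140 in WT, 139 in Dll1-/- cells and 45.9 in Rbpj-/- cells, where the lowest signal well above background was 15.8. The Cd8a probe was lower in Rbpj-/- cells by 1.29 log2 (2.44-fold), with 9 of 9 spots lower and 8 of them at least 2-fold. Among all probes that both arrays measured, 2.42% were at least 2-fold lower. The difference was -1.29 over spots in the lower-numbered rows of the array and -1.26 over spots in its higher-numbered rows, so it was of like size in both parts. In Dll1-/- cells the same probe was 0.19 above WT (-0.03 under spike-in scaling), within a scanner error of 0.21.

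The 1-spot Cd8a probe was dim, at levels of -2.83 in WT and -2.50 in Dll1-/- cells, and not well above background in Rbpj-/- cells. For it the WT level was, as a bound, at least 1.18-fold and the level in Dll1-/- cells at least 1.48-fold that of Rbpj-/- cells. The differences behind these bounds, -0.23 and -0.57 log2, had scanner errors of 0.45 and 0.40, so the first lies within its error. After normexp with 75th percentile scaling they were 0.07 and -0.10. Averaging this dim probe with the other brings the gene's difference to -0.76 (1.69-fold lower), short of 2-fold. Cd8b1, the partner chain with which Cd8a forms the usual CD8 coreceptor, stood at -0.16 in WT, -0.30 in Dll1-/- cells and -0.73 in Rbpj-/- cells. It was lowest in Rbpj-/- cells, at -0.57 from WT (1.49-fold lower) beside a scanner error of 0.22, and its only spot lies in the lower-numbered rows. Its difference of -0.14 in Dll1-/- cells was within the error of 0.21 and opposite in sign to that of Cd8a. Cd8b1 and Cd8a are direct neighbours in the RefSeq table.

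**Figure D3:**
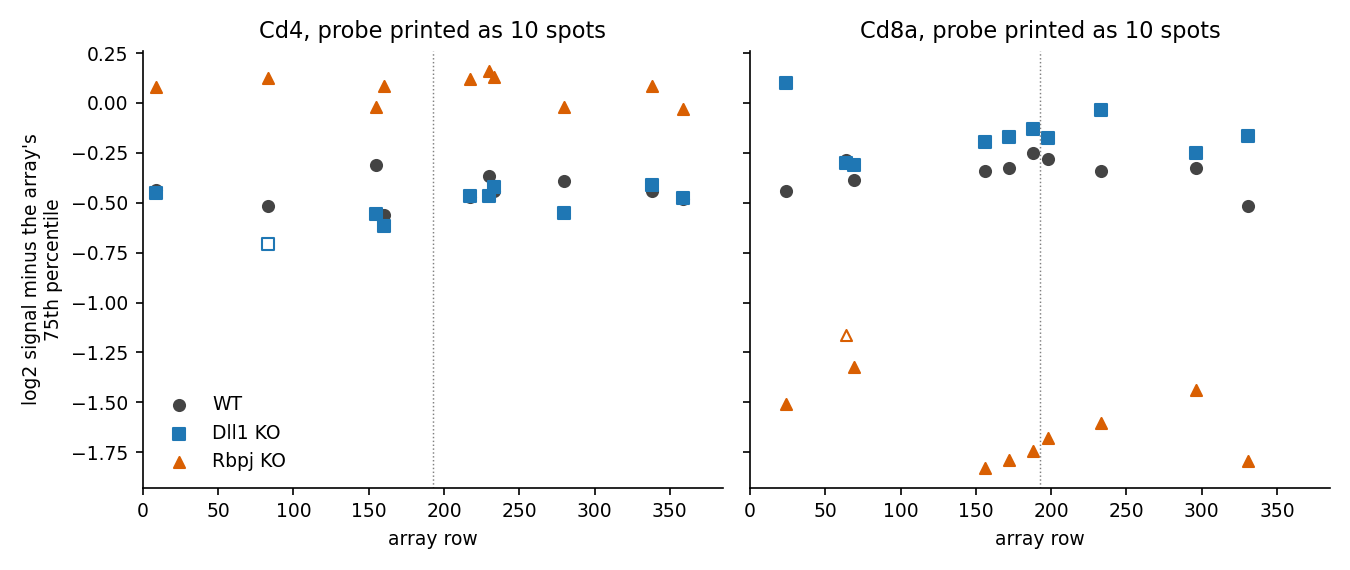
Level of each of the 10 spots of the Cd4 probe and of the Cd8a probe against its row on the array (x axis, row; y axis, log2 signal minus the array's 75th percentile; open symbols, spots marked as outliers and not used; dotted line, the border between lower-numbered and higher-numbered rows). Across the array the Rbpj KO spots lie above the others for Cd4 and below them for Cd8a; under spike-in scaling the Cd4 probe is at -0.23 from WT.

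Because Cd4 and Cd8a were read on the same arrays, the change of one against the other is free of array scaling. From WT to Rbpj-/- cells the 10-spot Cd4 probe (0.51, with 0.24 at the other) was 1.80 log2 higher relative to the 10-spot Cd8a probe. Over 10 processings that leave probes separate, including the one reported, this value ran from 1.04, after normexp with 75th percentile scaling, to 1.82. In Dll1-/- cells the Cd4 probe instead stood -0.23 relative to the Cd8a probe, within -0.26 and -0.14 over the same processings. Against Cd3e in Rbpj-/- cells, the Cd8a probe was at -1.21, Cd8b1 at -0.50 and the Cd4 probes at 0.59 and 0.31. Over the processings that measured both probes, these ran from -1.23 to -0.51 for Cd8a, from -0.50 to -0.15 for Cd8b1, and for Cd4 from 0.26 to 0.60 and from 0.22 to 0.31. Against Cd3g the Cd4 probes were at 0.34 and 0.06, but at 0.03 and -0.01 after normexp with quantile normalization.

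After normexp background correction with quantile normalization the Cd8a probe was 1.65-fold lower in Rbpj-/- cells and the 10-spot Cd4 probe 1.30-fold higher. Under that processing the 2-fold call for Cd8a ends, and the share of all genes at least 2-fold apart is 0.933%. Normexp here added an offset of 50 to every signal, which by itself makes fold differences smaller at low signals. Mean signals of the Cd8a probe were 140 in WT and 45.9 in Rbpj-/- cells.

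**Figure D4:**
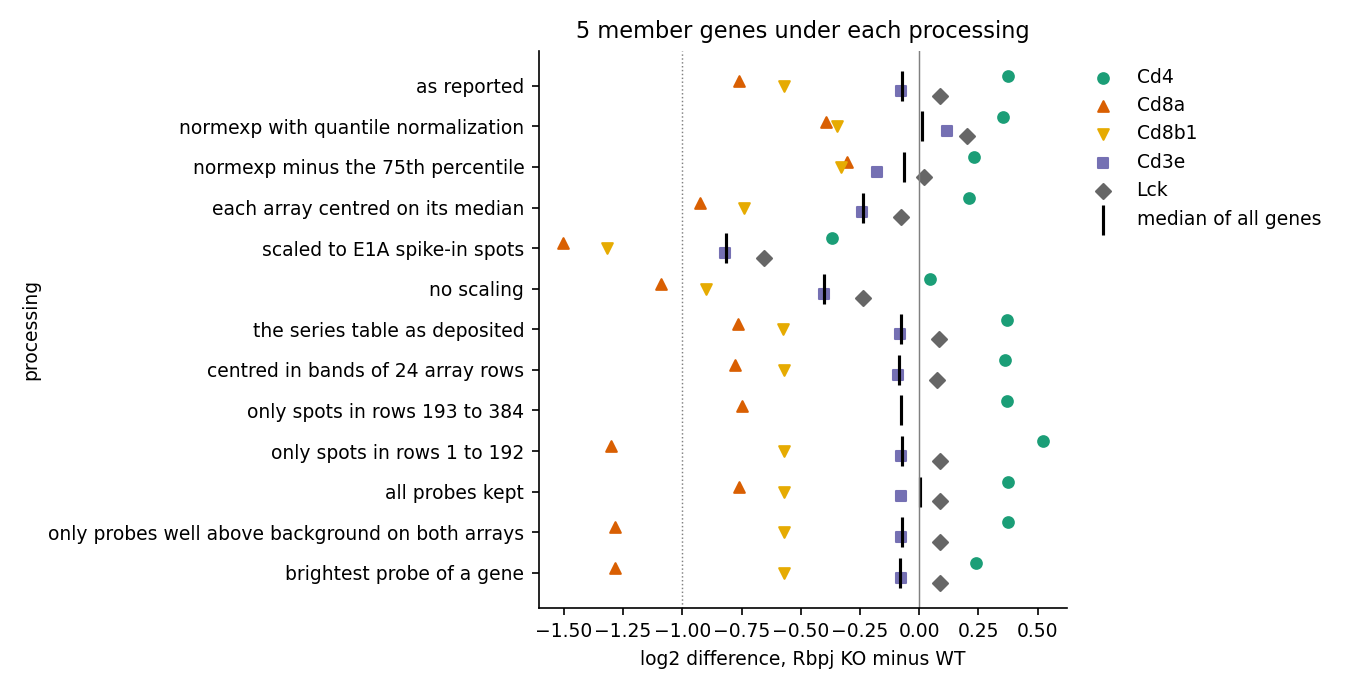
Difference between the Rbpj KO and WT (x axis, log2) of Cd4, Cd8a, Cd8b1, Cd3e and Lck under each processing (rows), each gene as the mean of its probes, with the median of all genes as a vertical bar. Cd8a and Cd8b1 lie below the median gene and Cd4 above it in every row that measures them, while Cd4 itself is below 0 under spike-in scaling.

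Directly between the knockouts, 1 of 10 members was at least 2-fold apart, Cd8a, beside 4.16% of 11794 genes, and likewise 1 of 10 beside 3.94% counting only probes that each of the arrays measured. At its 10-spot probe Cd8a was 2.77-fold lower in Rbpj-/- cells than in Dll1-/- cells, with 9 of 9 spots lower. After normexp the call ends, with 0 of 10 members, and the probe was 1.80-fold lower with quantile and 1.76-fold lower with 75th percentile scaling. Cd4 was 0.56 and 0.28 log2 higher there by its 2 probes (0.03 and -0.25 under spike-in scaling), and Cd8b1 was at -0.43. The other 7 members lay between -0.12 and 0.36.

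The markers of CD8 T cells, of which Cd8a and Cd8b1 are the defining ones, were mostly lower in Rbpj-/- cells too. All 9 markers on the list were well above background on the 3 arrays, so the samples labelled as CD4+ held RNA of these genes. Of the 7 markers other than the members, 6 were lower in Rbpj-/- cells than in WT and 1 was above, where 39.8% of all genes were above. Their median was -0.56, beside -0.07 over all genes. At least 2-fold lower were 3 of the 7, where 2.15% of all genes were. These were Cd160, a surface receptor of killer and NK cells, at -1.80, the granule membrane gene Nkg7 at -1.45, and Eomes, a T-box factor of killer and memory cells, at -1.22. Cd160 was dim in Rbpj-/- cells, at a level of -3.10, where the lowest level well above background was -3.16. The one that was not lower, Gzmk, a granzyme gene named for that, was at 0.19. Their summed level, in units of the array's 75th percentile, was 38.6 in WT, 41.3 in Dll1-/- cells and 24.8 in Rbpj-/- cells. That sum rests mostly on the brightest probes. These were Nkg7, at levels of 3.74, 3.58 and 2.29 in the same order, and Crtam, named after its values were seen, at 4.08, 4.32 and 3.84. Of the same 7 in Dll1-/- cells, 4 were lower and 3 higher, where 44.3% of all genes were higher. The median was -0.05, beside -0.03 over all genes. The list was chosen with earlier results of these data known, so its counts beside the shares over all genes only describe these arrays. The part of these genes in the Cd8a result was not tested.

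Cd8a is also carried by a subset of dendritic cells. Of 7 dendritic markers, Flt3, Itgax, Xcr1, Clec9a and Zbtb46 were not well above background on any array. Batf3, named after its values were seen, was at -1.39 in WT and -1.46 in Dll1-/- cells. In Rbpj-/- cells it was not well above background. The list's summed level, 539 in WT, 597 in Dll1-/- cells and 612 in Rbpj-/- cells, rests on the Siglech probe. For NK cells, Ncr1, Klrk1 and Klre1 were not well above background on any array, and the summed level of the 5 measured markers was 7.97, 9.65 and 4.97 in the order WT, Dll1-/-, Rbpj-/-. The lower sum in Rbpj-/- cells rests on Gzma, a granzyme gene at -3.07 from WT there, since without it the sums were 3.98, 4.29 and 4.50. Klrd1, an NK receptor chain named after its values were seen, was at 0.46 in Rbpj-/- cells. Tyrobp, a signalling adaptor for receptors on NK and myeloid cells, was at 1.11 in Dll1-/- cells. Of 8 B cell markers, 4 were well above background in WT, 7 in Dll1-/- cells and 5 in Rbpj-/- cells. Blk was so on no array, and Pax5 and Ebf1, named after their values were seen, only in Dll1-/- cells. Ms4a1 (CD20) was at 2.48 in WT and 1.75 in Rbpj-/- cells and Cd79b at 3.41 and 2.88. Of the 4 B cell markers measured in both, 3 were lower in Rbpj-/- cells, with a median of -0.50 beside -0.07 over all genes. Cd22 was at 0.02, and of all genes 39.8% were above WT. Cd79a was not well above background in WT and was 2.19-fold higher in Rbpj-/- than in Dll1-/- cells; both it and Cd22 were named after their values were seen. The summed level of the 7 measured B cell markers was 24.3 in WT, 23.2 in Dll1-/- cells and 17.8 in Rbpj-/- cells. For macrophages, Adgre1, Cd14 and Fcgr1 were not well above background, and the summed level was between 1.30 and 1.77. For neutrophils it was between 2.14 and 3.67, lowest in Dll1-/- and highest in Rbpj-/- cells. S100a8 and S100a9 were at -1.34 and -1.14 from WT in Dll1-/- cells and at 0.70 and 0.86 in Rbpj-/- cells. Mpo and Elane, named after their values were seen, were at 0.10 and -0.05 in Dll1-/- cells and at -0.27 and -0.002 in Rbpj-/- cells. Of the 5 neutrophil markers measured, 1 was above WT in Dll1-/- cells, where 44.3% of all genes were. In Rbpj-/- cells 3 of the 5 were above WT, where 39.8% of all genes were. Of the gamma delta T cell list only Sox13 was measured, at a level between -0.66 and -0.59. The part of these cell types in the members' values was not tested.

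Other genes of the pathway were taken from lists. Beyond the members, 20 kinases, adaptors and effectors next to the receptor were measured, and 0 were at least 2-fold apart from WT in either knockout. Above WT in Dll1-/- cells were 5 of the 20, where 44.3% of all genes were, with a median of -0.10 beside -0.03 over all genes. All 20 were within 1.5-fold there, as were 95.8% of all genes. In Rbpj-/- cells 8 of the 20 were above, where 39.8% of all genes were, with a median of -0.08 beside -0.07. Within 1.5-fold there were 18 of the 20, beside 88.2% of all genes, so these counts are near the shares over all genes. Outside 1.5-fold were Rasgrp1, which activates Ras below Lat, at levels of 5.46 in WT, 5.24 in Dll1-/- cells and 4.63 in Rbpj-/- cells, and Prkcq, the protein kinase C of the immune synapse, at 4.78, 4.53 and 4.19. Both were lowest in Rbpj-/- cells, at -0.82 and -0.60 from WT.

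Of 18 negative regulators of proximal signalling that were measured, 12 were above WT in Rbpj-/- cells, where 39.8% of all genes were, with a median of 0.08 beside -0.07. Above WT in Dll1-/- cells were 10 of 18, where 44.3% of all genes were, with a median of 0.07 beside -0.03. Not one of them was at least 2-fold apart from WT, with 0 of 18 in each comparison. Ubash3b, a phosphatase that acts on Zap70, was at 0.10 in Dll1-/- cells and 0.48 in Rbpj-/- cells, and Cblb, a ubiquitin ligase that limits activation, at 0.48 and -0.10. All 5 phosphatases and scaffolds around Lck were within 1.5-fold of WT, near the shares of all genes given above. Tespa1, an adaptor of thymocyte signalling, was at 0.12 and 0.24, and Unc119, an Lck-binding protein, at -0.16 and -0.05. The genes for the receptor's own constant regions had no probe named by the rule and are not analysed here, and the probe for Ptcra, the pre-receptor chain, was not well above background.

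Regulators of the coreceptor genes were measured in full, 14 of 14. In Rbpj-/- cells 4 of 14 were above WT, where 39.8% of all genes were, with a median of -0.18 beside -0.07 over all genes, and 0 were at least 2-fold apart. Myb, a transcription factor of thymocyte development, was at levels of 3.16 in WT, 3.30 in Dll1-/- cells and 3.90 in Rbpj-/- cells, and Tox, a nuclear factor needed for the CD4 lineage, at 1.24, 1.26 and 1.94. Both were thus highest in Rbpj-/- cells, at 0.74 and 0.70 above WT. Zbtb7b, the factor that commits cells to the CD4 lineage and represses Cd8 genes, was picked after its values were seen, as a regulator of both coreceptors. It stood at 2.17 in WT and at 1.62 in both knockouts, -0.54 and -0.55 from WT, with all its spots in the lower-numbered rows.

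Of the related signalling chains of other lineages, 8 were measured in each comparison with WT. At least 2-fold apart in Dll1-/- cells was 1 of 8, Tyrobp, beside 1.12% of all genes. In Rbpj-/- cells it was 0 of 8, beside 3.53% of all genes. Tyrobp had levels of -1.84 in WT, -0.74 in Dll1-/- cells and -2.08 in Rbpj-/- cells, and was at 1.11 and -0.24 from WT.

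**Figure D5:**
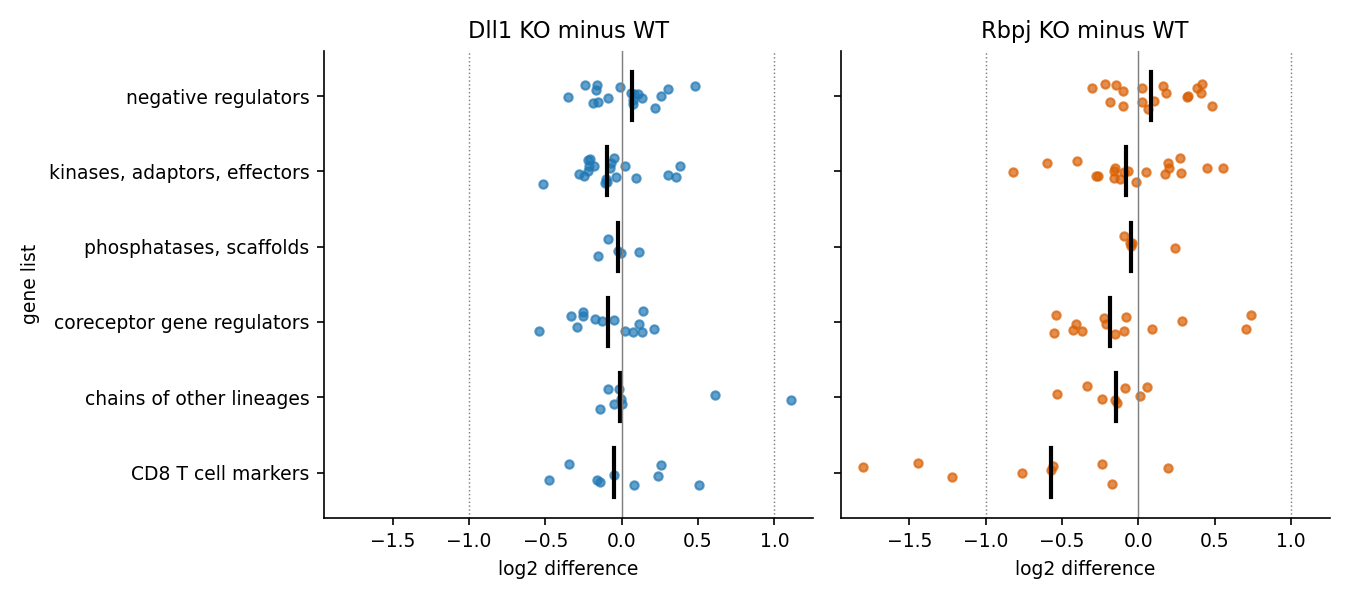
Difference from WT (x axis, log2) of each measured gene of 6 lists, on the left for the Dll1 KO, on the right for the Rbpj KO, with the list's median as a black bar and dotted lines at 2-fold. The CD8 T cell markers, here with Cd8a and Cd8b1, have a median of -0.57 in the Rbpj KO, and the other 5 lists plotted have medians between -0.18 and 0.08 there; the B cell markers, not plotted, have -0.50.

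Cd8a varied most over the 3 arrays among the members, with a range of 1.02 log2 as a mean of its probes. The genes whose 3 levels, centred per gene, lay nearest to its own were Mgll, Ube2ql1, Ccdc159, Gadd45g and Tm6sf1, at distances between 0.01 and 0.04 log2. Of 11553 genes measured on the 3 arrays, 32 lay within 0.1. Cd8b1 was number 882 in that order, at 0.43, and unlike Cd8a it was below WT in Dll1-/- cells. That mean includes the dim probe, which has only a bound in Rbpj-/- cells. From the 10-spot probe alone, a choice made after seeing the data, the nearest were Trem3, Zbtb16, Mycbp, Ttl and Ifi44, with 0 of 5 genes shared and 17 within 0.1. The names thus depend on the probe, and with 3 arrays such likeness describes these arrays only.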

How the data were processed

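Gene expression was measured on 3 one-colour Agilent mouse arrays, 1 for each genotype, from 20 ng of RNA labelled with Cy3, per the labels. Per the file headers the 3 arrays share 1 slide and 1 scan time, and the design was built on mm9. The authors deposited scanner files made by Feature Extraction 10.7 per the labels (10.7.1.1 per the file headers). Per the file headers the deposited processed signal is a linear intensity from which the authors' software subtracted background and removed surface trends, and each spot has an error. Values in the authors' deposited table of the series are log2, and 100% of probes matched the scanner's log2 signal shifted by a constant for each array, to within 0.01. The scale and direction are thus settled, with no centring per gene, and the column medians were -3.44, -3.40 and -3.28 in the order WT, Dll1 KO, Rbpj KO.

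Spots marked as outliers (143, 163 and 139) were left out, spots of a probe were averaged, and each array's 75th percentile over 55678 probes was subtracted (7.47, 7.28 and 7.14). Probes were named through the RefSeq table of GRCm38.p6, which matched 27507 probes. Probes well above background on 1 array or more were averaged to a gene, which is compared where a probe is well above background on both. Where a probe was measured on 1 array of a comparison, the dim side was set, for a bound, at its own signal or at the lowest one well above background there, whichever was higher. At least 2-fold counted as apart, and the number of arrays limits the precision. Normexp used the median spot and background signals, since these files hold no mean signal, and added an offset of 50 (limma 3.58.1, R 4.3.3). Other steps used Python 3.11.15. The calls were tested on simulated data made for Rbpj KO minus WT with 12099 genes, where 48 of 50 altered 2.5-fold passed 2-fold and 1 of 50 altered 1.5-fold did. Both simulated arrays were copies of the WT array with random noise of a fixed size, larger than the median SD between spots of one probe. They hold no spread between mice or samples, so the simulation cannot tell how often such spread gives a call.

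All members and all their probes are named. From each other list the genes at least 2-fold apart from WT are named, at most 4, or else the 2 with the largest difference, and for the member that varied most the 5 genes nearest to it; genes named outside this rule are marked as such. The members and lists were chosen with earlier results of these data known.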

Additional observations from a re-analysis of the deposited data

How the results depend on the processing

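In all, 12 alternatives were run, and the 1 that needed a column of gene names was not run, since the scanner files used here have no such column. Members at least 2-fold apart numbered 0 in the Dll1 KO against WT under each of the 12. In the Rbpj KO against WT the number was 0 as reported and 1 with spots of the lower-numbered rows alone, with probes well above background on both arrays, with the brightest probe or with no scaling, and 2 under spike-in scaling. Between the knockouts it was 1 as reported and 0 after normexp, with quantile or with 75th percentile scaling. The median over members in the Rbpj KO against WT moved from -0.04 to -0.79 under spike-in scaling, where every gene shifts by -0.74, and to -0.37 without scaling. Between the knockouts it moved from 0.01 to -0.52 under spike-in scaling. Genes at least 2-fold apart numbered 132 for the Dll1 KO, 409 for the Rbpj KO, each against WT, and 491 between the knockouts. After normexp with quantile normalization the first 2 were 11 and 108, and 1.64% of genes were so between the knockouts. Normexp with 75th percentile scaling gave 11, 138 and 206, the higher-numbered rows alone 17, 182 and 241, the lower-numbered rows alone 110, 268 and 315, and keeping all probes 1147, 1753 and 1936. In the Rbpj KO against WT spike-in scaling gave 2909 and no scaling 667, and between the knockouts spike-in scaling gave 1116. Cd8a and Cd8b1 stayed below the median gene in the Rbpj KO under each alternative that measured them. Spots in the higher-numbered rows alone measure only 4 members. Signal limits the dim 1-spot Cd8a probe, which has only a bound in the Rbpj KO. No paired analysis was possible because each group has 1 array.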
